A study of Yarrowia lipolytica with 4 samples.

Results

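The aldehyde and alcohol dehydrogenases described here are 9 genes of Yarrowia lipolytica, an oleaginous yeast, out of 6797 genes in the deposited table. They were chosen by gene identifier, and the table describes them as aldehyde dehydrogenase (5 genes), semialdehyde dehydrogenase (1), Aldehyde/histidinol dehydrogenase (1) or alcohol dehydrogenase (2). The same words occur in the descriptions of 12 more genes. Of these, 3 are no dehydrogenases by the rest of their annotation and 9 are further genes described as Aldehyde/histidinol dehydrogenase, which are compared with the 9 members below. Poly(A) RNA was sequenced from 2 libraries of strain F19, studied in work that used CRISPR interference, the repression of single genes by guide RNAs, to look for tolerance of furfural and acetic acid, and 2 libraries of the control strain WLH. Both strains derive from PO1f, a leucine- and uracil-requiring laboratory strain, and both grew with 2.4 mM furfural in synthetic medium without leucine for 48 h at 30 °C. No library grown without furfural was analysed here, so every comparison is between strains and none is with and without the aldehyde. The gene repressed in F19 is not named in the sources used here and was not checked, and no source says whether each library came from its own culture, so the p-values reflect only the scatter among these 4 libraries, and that scatter could be technical.

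Furfural is an aldehyde that forms when plant sugars are heated in acid, and it is toxic to yeasts. Yeasts convert it in a pair of directions: alcohol dehydrogenases and other reductases reduce it to furfuryl alcohol at the cost of NADH or NADPH, and aldehyde dehydrogenases oxidise it to furoic acid. The same enzyme families also serve ordinary metabolism, such as the turnover of acetaldehyde, ethanol and acetate and of aldehydes formed from amino acids and lipids, and which member acts on furfural was not measured here.

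The annotation of the members did not bear out a single role. Ortholog number K00128, an NAD-dependent aldehyde dehydrogenase, was given to 4 members, gene-BKA90DRAFT_137801, gene-BKA90DRAFT_2704, gene-BKA90DRAFT_161625 and gene-BKA90DRAFT_98450, written from here without the prefix. All of these except BKA90DRAFT_161625 carry terms for the mitochondrion, acetate synthesis and ethanol metabolism. The identifiers gene-BKA90DRAFT_133516 and gene-BKA90DRAFT_143368 share K00129, an aldehyde dehydrogenase that can use NAD or NADP, and the latter has terms for polyamine breakdown and beta-alanine synthesis. The gene-BKA90DRAFT_139077 entry is annotated as aspartate-semialdehyde dehydrogenase, an enzyme of threonine and methionine synthesis rather than of aldehyde removal. Of the alcohol dehydrogenases, gene-BKA90DRAFT_135052 is a zinc enzyme assigned to the cytoplasm, whereas gene-BKA90DRAFT_135201 also has the ortholog number of hydroxyacid-oxoacid transhydrogenase, a mitochondrial enzyme that passes electrons between small organic acids. The 9 genes lie on 8 scaffolds, with only the 2 alcohol dehydrogenases sharing one (ML755987.1, 136988 to 138043 and 348217 to 349883), have 1056 to 1862 exonic bases, equal to their whole spans, and overlap 0 other annotated features.

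In F19, 1 member was higher than in WLH, 2 were lower, 5 did not pass the test and 1 was too low to test. BKA90DRAFT_161625 rose 4.16-fold from a very low level, BKA90DRAFT_143368 fell 2.51-fold and BKA90DRAFT_139077 fell 1.53-fold. The abundant aldehyde dehydrogenases BKA90DRAFT_137801, BKA90DRAFT_2704 and BKA90DRAFT_133516 and both alcohol dehydrogenases did not pass. These calls are from edgeR's quasi-likelihood test fitted to all genes, with a Benjamini-Hochberg adjusted p below 0.05. On simulated counts more of the calls were false than that threshold allows, but far fewer genes were changed there than were called here. The share of false calls depends on how many genes change, so the certainty of calls near the threshold was not measured for these data. With library totals in place of scaling factors the counts were 4 higher and 1 lower. Which members were called also changed with the library left out. The log2 fold change of BKA90DRAFT_161625 then ran from 1.22 to 2.59, and that of BKA90DRAFT_139077 from -0.84 to -0.41. Among the 6414 genes tested, 51.4% were called, 25.9% higher and 25.5% lower, so the 3 of 8 tested members that passed are no larger a share than that of genes in general. The median log2 fold change (F19 over WLH) was 0.18 over the 8 tested members and 0.01 over all tested genes. The share of genes called at least 2-fold was 19.6% of all tested, and 2 of the 8 tested members met it. Groups of 2 libraries whose values do not overlap were common, found for 79.5% of tested genes and for 6 of the 8 tested members, and an exact permutation test of 2 against 2 libraries cannot give a two-sided p below 0.333. Depth was 18268878 to 24165223 counts per library. Values for comparing strains are given as CPM, counts brought to a common library size with TMM factors, which correct for differences in RNA composition. They are relative to all transcripts, so a change in RNA per cell would not show.

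**Figure D1:**
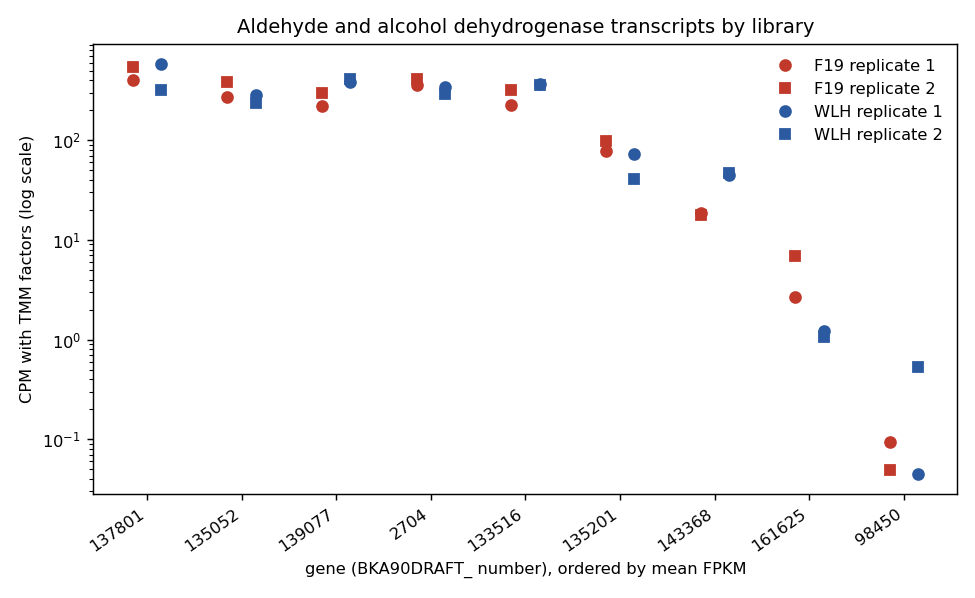
CPM of each of the 9 genes (log axis) in the 4 libraries, F19 in red and WLH in blue, circles for replicate 1 and squares for replicate 2. The F19 and WLH points are clearly apart for BKA90DRAFT_143368 (lower in F19). For BKA90DRAFT_161625 both F19 points lie above the WLH points, but they are far from each other, at 2.66 and 6.95 CPM. BKA90DRAFT_98450 lies below 1 CPM in every library.

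Among the aldehyde dehydrogenases, BKA90DRAFT_143368 (ML756093.1, 4819 to 5910, plus strand) gave the firmest difference. It had 18.8 and 17.6 CPM in F19 replicates 1 and 2 and 44.7 and 46.7 CPM in WLH replicates 1 and 2. The libraries of each strain lay close together and the strains did not overlap. The log2 fold change was -1.33 ± 0.14 (SE; adjusted p = 0.000761, edgeR), with a 95% interval of 0.317 to 0.503 for the ratio of F19 to WLH. The call held under each alternative tried, with log2 fold changes from -1.38 to -1.05. In the authors' deposited table of significant genes, which holds no change under a log2 size of 1.00, it stood at -1.32 ± 0.14 (SE; adjusted p = 2.24e-20). Its direct neighbours on the scaffold did not pass: the glycoprotease-family gene BKA90DRAFT_143365, 854 bases before it, had a log2 change of -0.11 ± 0.16 (SE; adjusted p = 0.576, edgeR), and BKA90DRAFT_143370, 969 bases after it, -0.36 ± 0.13 (adjusted p = 0.0558).

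BKA90DRAFT_133516 (ML755980.1, 333965 to 335651, minus strand), the other gene with K00129, had 228 and 316 CPM in F19 and 369 and 355 CPM in WLH. Both F19 libraries were below both WLH libraries, but the F19 libraries were far apart. The log2 fold change of -0.41 ± 0.18 (SE; adjusted p = 0.0913, edgeR) did not pass, and its interval of the ratio, 0.561 to 1.01, reaches from a fall to no change. It passed without F19 replicate 2 (log2 fold change -0.65, adjusted p = 0.00872). Per length, BKA90DRAFT_133516 was the more abundant of the pair in all 4 libraries. Its FPKM, counts scaled by exonic length and library total, was 7.86 and 11.6 times that of BKA90DRAFT_143368 in F19 and 5.34 and 4.92 times in WLH, a ratio that was higher in both F19 libraries.

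The members with K00128 ran from among the most abundant of the 9 to nearly silent. BKA90DRAFT_137801 (ML756004.1, 32163 to 33795, minus strand) had 406 and 543 CPM in F19 and 576 and 323 in WLH. The WLH libraries enclosed both F19 values. The log2 fold change was 0.08 ± 0.28 (SE; adjusted p = 0.834, edgeR), and the 95% interval of the ratio ran from 0.666 to 1.67. Its sign depended on single libraries, being -0.13 without F19 replicate 2 and -0.28 without WLH replicate 2, and 0.56 without WLH replicate 1. BKA90DRAFT_2704 (ML756076.1, 19939 to 21720, minus strand) had 361 and 414 CPM in F19 and 343 and 294 in WLH. The strains did not overlap, yet the gap was small against the spread, with a log2 change of 0.28 ± 0.15 (SE; adjusted p = 0.158, edgeR) and an interval of the ratio of 0.948 to 1.56. With library totals in place of TMM factors, which moved the median of all genes to 0.24, it was 0.52 and passed (adjusted p = 0.0224). Per length, BKA90DRAFT_137801 exceeded BKA90DRAFT_2704 in every library, by 1.23 and 1.43 times in F19 and 1.83 and 1.20 times in WLH.

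BKA90DRAFT_161625 (ML755992.1, 9082 to 10943, plus strand), the Aldehyde/histidinol dehydrogenase among the members, had the largest change of the 8 tested and rested on few reads. Its counts were 57 and 140 in F19 and 27 and 18 in WLH, or 2.66, 6.95, 1.22 and 1.07 CPM. Both F19 libraries were above both WLH libraries, and F19 replicate 2 was well above replicate 1. The log2 fold change was 2.06 ± 0.51 (SE; adjusted p = 0.0137, edgeR), with a 95% interval of 1.82 to 9.51 for the ratio. The call, but not the size of the change, was lost without WLH replicate 1 (log2 change 2.17, adjusted p = 0.09) and without WLH replicate 2 (1.97, 0.0986), and the change was 1.22 without F19 replicate 2 (adjusted p = 0.0479) and 2.59 without F19 replicate 1 (0.00195). The authors' deposited table gave it a log2 change of 2.07 ± 0.56 (SE; adjusted p = 0.000604). Neither hypothetical gene beside it passed, with log2 fold changes of 0.30 ± 0.52 for BKA90DRAFT_135995 (SE; adjusted p = 0.645) and -0.26 ± 0.13 for BKA90DRAFT_11095 (adjusted p = 0.133), both from edgeR. Over the 4 libraries, the tested genes with the pattern most like it, by the distance between log2 CPM centred on each gene's mean, were the luciferase-like gene BKA90DRAFT_127303 (distance 0.11), the major facilitator BKA90DRAFT_138988 (0.15) and the hypothetical gene BKA90DRAFT_143742 (0.16). These 3 were picked for this likeness, so the excess of F19 replicate 2 that they share with it follows from the choice. Their values in F19 replicates 1 and 2 were 1.68 and 4.27, 21.5 and 54.0, and 37.6 and 87.3 CPM.

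BKA90DRAFT_98450 (ML756005.1, 165543 to 167110, minus strand), which has the same terms as BKA90DRAFT_137801, was close to silent. It had 2 and 1 counts in F19 and 1 and 9 in WLH, under the filter on low counts. Its level is listed at 0.03 to 0.31 FPKM, and at this depth no difference between strains was detectable.

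The aspartate-semialdehyde dehydrogenase BKA90DRAFT_139077 (ML756014.1, 151942 to 153213, plus strand) had 220 and 301 CPM in F19 and 383 and 413 in WLH. All F19 values were below the WLH values. The log2 fold change was -0.61 ± 0.18 (SE; adjusted p = 0.0253, edgeR), with an interval of the ratio of 0.489 to 0.876. The call did not survive leaving out F19 replicate 1 (log2 change -0.41, adjusted p = 0.0502), WLH replicate 1 (-0.66, 0.101) or WLH replicate 2 (-0.55, 0.149), or moving to limma on FPKM (0.0888 to 0.096), and it was lost with library totals (log2 fold change -0.38, adjusted p = 0.103). Of the hypothetical genes beside it, BKA90DRAFT_139076 did not pass (log2 fold change -0.05 ± 0.38, SE; adjusted p = 0.93, edgeR), and BKA90DRAFT_139078 rose (0.64 ± 0.16; adjusted p = 0.0131).

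Neither alcohol dehydrogenase passed. BKA90DRAFT_135052, the zinc enzyme, had 271 and 382 CPM in F19 and 284 and 237 in WLH, so that F19 replicate 1 lay between the WLH libraries. Its log2 fold change was 0.33 ± 0.20 (SE; adjusted p = 0.198, edgeR), with an interval of the ratio of 0.91 to 1.73. It passed without F19 replicate 1 (log2 fold change 0.55, adjusted p = 0.0251). BKA90DRAFT_135201, the transhydrogenase-like gene, had 77.6 and 98.8 CPM in F19 and 73.4 and 40.7 in WLH. The F19 libraries were above the WLH libraries, but WLH replicate 1 came close to F19 replicate 1. Its log2 fold change was 0.63 ± 0.27 (SE; adjusted p = 0.0879, edgeR), with an interval of 0.995 to 2.39. DESeq2 called it (adjusted p = 0.0494). The value turned on the WLH library, being 1.12 without WLH replicate 1 (adjusted p = 0.0243) and 0.27 without WLH replicate 2. With library totals, the 2 alcohol dehydrogenases stood at log2 fold changes of 0.56 and 0.86 (adjusted p = 0.0427 and 0.032), against a median of 0.24 over all genes.

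**Figure D2:**
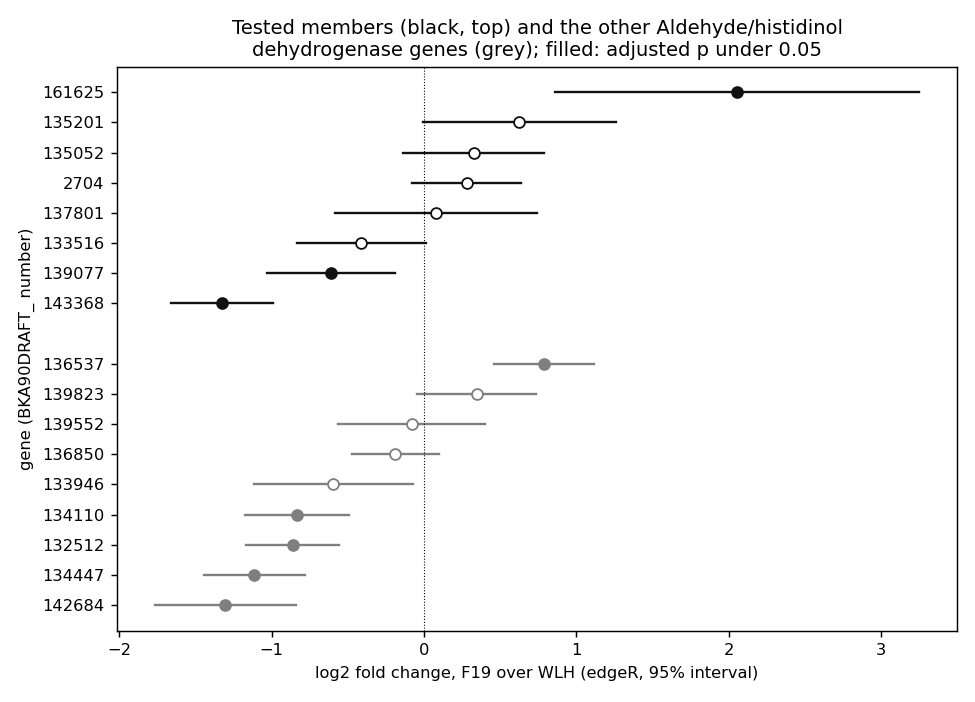
Log2 fold change of F19 over WLH with its 95% interval (edgeR) for the 8 tested members in black and, in grey, the other 9 genes described as Aldehyde/histidinol dehydrogenase; filled points have an adjusted p below 0.05. Of the members, BKA90DRAFT_161625 is filled on the right, and BKA90DRAFT_139077 and BKA90DRAFT_143368 on the left, while 5 of the 9 others are filled, 4 of them on the left.

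Levels between genes can be compared only per length, and for this the deposited FPKM were used. The mean over the 4 libraries was 283 FPKM for BKA90DRAFT_137801, 280 for BKA90DRAFT_135052, 255 for BKA90DRAFT_139077, 200 for BKA90DRAFT_2704, 186 for BKA90DRAFT_133516, 44.3 for BKA90DRAFT_135201, 28.3 for BKA90DRAFT_143368, 1.67 for BKA90DRAFT_161625 and 0.11 for BKA90DRAFT_98450. The first 5 were above 88.2% of all genes or more, while BKA90DRAFT_161625 was above 10.2%. The order among these 5 was not stable. BKA90DRAFT_137801 and BKA90DRAFT_135052 overlapped in both strains, and the leading gene was BKA90DRAFT_135052 in both F19 libraries, BKA90DRAFT_137801 in WLH replicate 1 and BKA90DRAFT_139077 in WLH replicate 2. BKA90DRAFT_139077 and BKA90DRAFT_2704 overlapped in F19 and not in WLH. BKA90DRAFT_2704 was above BKA90DRAFT_133516 in both F19 libraries and below it in both WLH libraries. BKA90DRAFT_135201 was above BKA90DRAFT_143368 in F19, at 51.0 and 63.3 against 18.9 and 17.2 FPKM, whereas in WLH their ranges overlapped, at 40.3 and 22.6 against 37.4 and 39.6. The last 2 genes kept their places in all 4 libraries.

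The summed level of the 9 genes did not separate the strains. It was 1185 and 1526 FPKM in F19, a mean of 1356 ± 241 (SD, n = 2), and 1299.5 and 1101 FPKM in WLH, a mean of 1200 ± 140 (SD, n = 2), so WLH replicate 1 lay between the F19 libraries. Which strain was higher depended on the scaling. With FPKM scaled by the TMM factors the sum was 1082 and 1429.8 in F19, a mean of 1256, and 1420.0 and 1191 in WLH, a mean of 1305. The shares of the sum, which this scaling leaves as they are, are given as a description. The 2 genes described as alcohol dehydrogenases supplied 28.0% and 29.5% of it in F19 and 22.1% and 20.9% in WLH, without overlap. The other 7 members, among them the aspartate-semialdehyde dehydrogenase BKA90DRAFT_139077, supplied the rest. With 2 libraries per strain a lack of overlap is common, found in CPM for 79.5% of tested genes, and neither alcohol dehydrogenase passed the test. BKA90DRAFT_139077 supplied 16.0% and 16.5% in F19 and 21.2% and 27.3% in WLH. BKA90DRAFT_137801 supplied 23.0% and 23.3% in F19, within the WLH values of 24.9% and 16.6%. All 9 genes took 0.158% to 0.223% of the counts of a library.

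**Figure D3:**
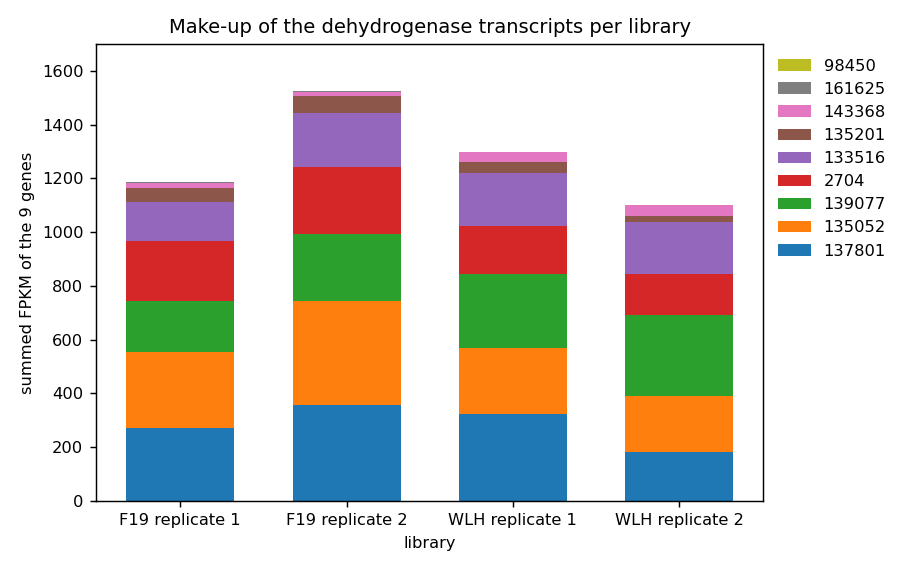
Deposited FPKM of the 9 genes stacked for each of the 4 libraries, 1 colour per gene. The totals of 1185, 1526, 1299.5 and 1101 FPKM overlap between the strains, and BKA90DRAFT_143368, BKA90DRAFT_161625 and BKA90DRAFT_98450 are thin or invisible bands.

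Within each strain, most tested members were higher in one library than in the other. F19 replicate 2 was above F19 replicate 1 in CPM for 7 of the 8 tested members, against 50.1% of all tested genes, and WLH replicate 1 was above WLH replicate 2 for 6 of 8, against 51.9% of all tested genes. Whether these counts exceed what any 8 genes would show was not tested. The part of such differences between libraries in the differences between strains was examined only by leaving out each library in turn.

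A list of the 9 genes outside the members that are described as Aldehyde/histidinol dehydrogenase was added once the annotation had been read. In F19, 4 fell, 1 rose and 4 did not pass, with a median log2 fold change of -0.59 against 0.01 for all tested genes. The share called was 55.6%, against 51.4% of all tested genes. BKA90DRAFT_142684, whose ortholog number is that of the enzyme that oxidises pyrroline-5-carboxylate to glutamate in proline breakdown, fell 2.47-fold, from 550 and 412 CPM in WLH to 172 and 218 in F19 (adjusted p = 0.00214, edgeR). BKA90DRAFT_134447 fell 2.16-fold, with 53.0 and 45.7 CPM in F19 and 115 and 98.9 in WLH (adjusted p = 0.0012, edgeR). The glutamate-5-semialdehyde dehydrogenase of proline synthesis, BKA90DRAFT_132512, fell 1.82-fold and BKA90DRAFT_134110, another gene with K00128, fell 1.78-fold. BKA90DRAFT_136537, also with K00128, rose 1.72-fold, with means of 85.9 ± 9.13 CPM in F19 and 49.8 ± 4.53 in WLH (SD, n = 2 each; adjusted p = 0.00377, edgeR). The annotated succinate-semialdehyde dehydrogenase BKA90DRAFT_133946, of the breakdown of gamma-aminobutyrate, had a log2 change of -0.59 ± 0.22 (SE; adjusted p = 0.0568, edgeR), which DESeq2 called (adjusted p = 0.0254). Across all 7 genes with K00128, of which 6 were tested, 3 were higher, 1 was lower and 2 did not pass. Of the higher ones, BKA90DRAFT_161625 and BKA90DRAFT_142377 rested on few reads, with 27 and 18 and with 5 and 5 counts in WLH. Members and these genes together make 18, of which 17 were tested: 2 rose, 6 fell and 9 did not pass, with a median log2 fold change of -0.19.

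The words aldehyde dehydrogenase or alcohol dehydrogenase, looked for in the text of every annotation column, occurred in 14 genes that are not members. Genes placed in these families by ortholog number whose text lacks these exact words, such as BKA90DRAFT_134110, BKA90DRAFT_136537 and BKA90DRAFT_135253, are not among them. Of the 14, 13 were tested: 3 rose, 3 fell and 7 did not pass. The share called was 46.2%, against 51.4% of all tested genes. The median log2 fold change was -0.01, and 3 of the 14 carry the words without being such enzymes. One of those, BKA90DRAFT_132874, has the ortholog number of a poly(A)-shortening nuclease and fell 2.02-fold. BKA90DRAFT_143783, described as chaperonin 10-like with alcohol dehydrogenase terms, was at 0 counts in each F19 library, against 39.9 and 23.4 CPM in WLH. With 3 counts per F19 library as a floor it was at least 219-fold lower, a bound that covers counting error only, and the median of the list is the same with it at that bound. BKA90DRAFT_142377, a gene of 427 exonic bases with K00128, rose from 0.226 and 0.296 to 1.35 and 1.29 CPM, and BKA90DRAFT_102674 rose from 0.407 and 0.414 to 1.54 and 2.43 CPM. Both rises rest on few reads, and both calls, but not the size of the changes, were lost without a WLH library. The log2 changes were 2.14 and 2.24 without WLH replicate 1 (adjusted p = 0.0671 and 0.0597, edgeR) and 2.52 and 2.27 without WLH replicate 2 (0.0501 and 0.0554), and without either of these libraries 0 genes of the list were called higher. Beside the member BKA90DRAFT_135052, 4 genes share its ortholog number K13953, a propanol-preferring alcohol dehydrogenase. The abundant one, BKA90DRAFT_134590, had 247 and 185 CPM in F19 and 285 and 150 in WLH, with a log2 change of -0.01 ± 0.29 (SE; adjusted p = 0.975, edgeR). BKA90DRAFT_134641 rose 2.00-fold, with 8.50 and 15.9 CPM in F19 and 7.19 and 4.91 in WLH (adjusted p = 0.0460, edgeR). This call did not hold when F19 replicate 2 (log2 change 0.49), WLH replicate 1 (1.31) or WLH replicate 2 (0.76) was left out. BKA90DRAFT_140054 did not pass (log2 change -0.66, adjusted p = 0.180, edgeR), and BKA90DRAFT_126832 was too low to test.

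Of 12 genes described as chaperonin 10-like, a name that zinc-dependent alcohol dehydrogenases often share, 11 have over 1000 exonic bases. Of the 11 tested, 3 rose and 4 fell, with a median log2 fold change of -0.54, also with BKA90DRAFT_143783 at its bound. The share called was 63.6%, against 51.4% of all tested genes. With library totals, in limma, or without WLH replicate 2, 2 fell. Some genes stand in more than 1 list, among them BKA90DRAFT_143783, BKA90DRAFT_102674 and BKA90DRAFT_134590 here. BKA90DRAFT_163544 had 4.48 and 4.82 CPM in F19 and 0.181 and 0.296 in WLH (adjusted p = 0.000583, edgeR). The more abundant BKA90DRAFT_134032 rose 2.25-fold, with 321 and 365 CPM in F19 and 148 and 157 in WLH (adjusted p = 0.000966, edgeR). BKA90DRAFT_133263, the short one, has the ortholog number of the true chaperonin and fell 2.42-fold. The words aldo/keto reductase and short-chain dehydrogenase matched 0 genes.

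For the steps that make and use acetate around the aldehyde dehydrogenases the list is short. Of 5 genes from pyruvate to acetyl-CoA through acetaldehyde and acetate, 3 were lower in F19, 0 were higher and 2 did not pass. Among all tested genes 51.4% were called, 25.5% lower. The median of the 5 was -0.60 on the log2 scale, and 1 gene was lower without WLH replicate 1 or without WLH replicate 2. Pyruvate decarboxylase, BKA90DRAFT_141574, which makes acetaldehyde, had 3143 and 2358 CPM in F19 and 2388 and 2611 in WLH, overlapping values with a log2 change of 0.14 ± 0.20 (SE; adjusted p = 0.587, edgeR). The gene with the ortholog number of acetyl-CoA synthetase, BKA90DRAFT_144461, which activates acetate, fell from 1160 and 1061 to 433 and 670 CPM (2.01-fold; adjusted p = 0.00911, edgeR), a change of much the same size without WLH replicate 1 (log2 change -0.94) or WLH replicate 2 (-1.07), though no longer called (0.0787 and 0.0601). The carnitine acetyltransferase BKA90DRAFT_135476, which moves acetyl groups between compartments, fell 2.92-fold and the other one, BKA90DRAFT_141011, fell 1.51-fold. The call of BKA90DRAFT_141011 was lost with library totals (log2 change -0.36, adjusted p = 0.123, edgeR), in limma (adjusted p = 0.109 to 0.117), and without F19 replicate 1 (-0.41, 0.0726), WLH replicate 1 (-0.45, 0.205) or WLH replicate 2, where the change was the larger -0.72 (0.0802).

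Of 16 genes that are partners of the semialdehyde and histidinol steps, 7 were lower in F19, 0 were higher and 9 did not pass. The share called was 43.8%, against 51.4% of all tested genes, of which 25.5% were lower and 25.9% higher. Their median was -0.64 on the log2 scale. Around BKA90DRAFT_139077, aspartate kinase, BKA90DRAFT_137507, which acts before it, had 86.6 and 146 CPM in F19 and 118 and 142 in WLH and did not pass (adjusted p = 0.584, edgeR), while homoserine dehydrogenase, BKA90DRAFT_136091, which acts after it, fell 2.40-fold, from 221 and 221 to 81.0 and 103 CPM (adjusted p = 0.000995). In proline synthesis, glutamate 5-kinase, BKA90DRAFT_134436, fell 2.26-fold and pyrroline-5-carboxylate reductase, BKA90DRAFT_14275, fell 1.75-fold, beside the fall of BKA90DRAFT_132512 between them; these genes were picked after their values were seen. The saccharopine dehydrogenase BKA90DRAFT_137177 of lysine synthesis fell 2.38-fold, and the 4-aminobutyrate aminotransferase BKA90DRAFT_3806, which yields succinate semialdehyde, fell 2.43-fold. In histidine synthesis, BKA90DRAFT_100378 fell 2.75-fold. BKA90DRAFT_116380 fell 1.73-fold, with 89.5 and 152 CPM in F19 and 193 and 226 in WLH (adjusted p = 0.0304, edgeR). The histidinol dehydrogenase gene BKA90DRAFT_134612 did not pass (log2 change 0.06 ± 0.29, SE, adjusted p = 0.879, edgeR). Nor did the other histidine synthesis genes of the list, BKA90DRAFT_134866, BKA90DRAFT_133456, BKA90DRAFT_133654 and BKA90DRAFT_138930. Without WLH replicate 1 the calls of BKA90DRAFT_137177 and BKA90DRAFT_3806 were lost (log2 change -1.18 and -0.83, adjusted p = 0.0562 and 0.0564, edgeR) and 4 genes of the list fell. Without F19 replicate 2, 13 fell.

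In the list for the route that removes formaldehyde with glutathione, 40.0% of tested genes were called. Among all tested genes 51.4% were called, 25.5% lower. The genes of the glutathione-dependent steps, given next, were both lower in F19. The glutathione-dependent alcohol dehydrogenase by ortholog number, BKA90DRAFT_135253, fell from 281 and 348 to 192 and 227 CPM, by 0.59 on the log2 scale (adjusted p = 0.0215, edgeR). The call was lost with library totals (0.105), in limma (0.103 to 0.109), and without F19 replicate 1 (0.0592) or WLH replicate 2 (0.157). The gene of S-formylglutathione hydrolase, BKA90DRAFT_136427, fell from 169 and 145 to 45.8 and 59.1 CPM, by 1.58 on the log2 scale (adjusted p = 0.00073, edgeR). Of 14 genes with the ortholog number of formate dehydrogenase, among which BKA90DRAFT_40437 was too low to test, 3 rose and 1 fell. In the whole list of 16, of which 15 were tested, 3 rose and 3 fell, with a median log2 fold change of -0.17. The rise of BKA90DRAFT_100539, from 51.3 and 26.0 to 65.6 and 119 CPM (adjusted p = 0.0262, edgeR), was no longer called without F19 replicate 2 (log2 change 0.77, adjusted p = 0.111) or WLH replicate 2 (0.84, 0.148). BKA90DRAFT_168790 rose 3.46-fold at a low level, from 1.18 and 2.01 CPM in WLH to 5.18 and 5.71 in F19. BKA90DRAFT_105597 fell 2.13-fold, a call lost when WLH replicate 2 was left out (log2 change -0.86). Without F19 replicate 2, 1 gene of the list rose, and without WLH replicate 2, 1 fell.

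**Figure D4:**
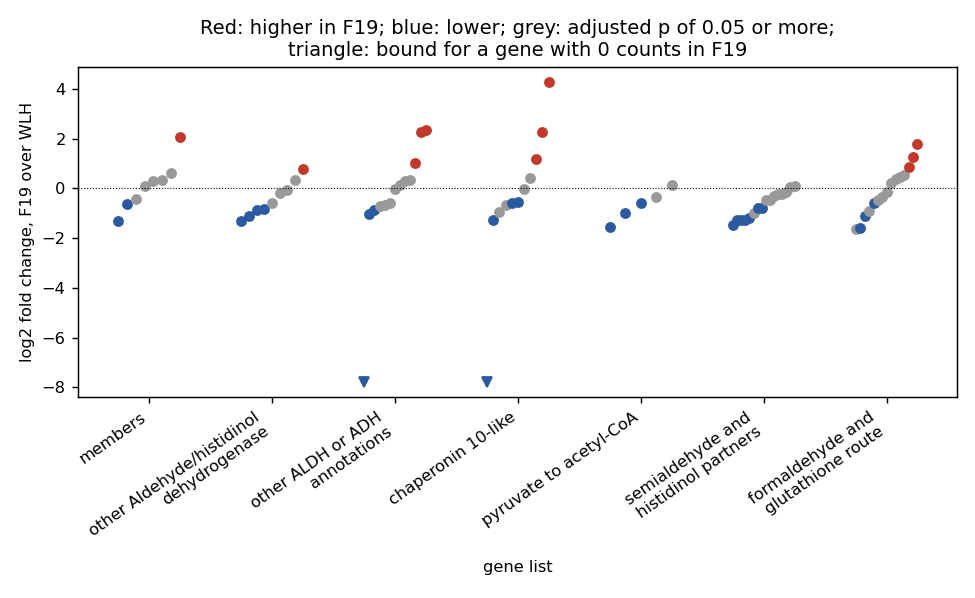
Log2 fold change of F19 over WLH for each tested gene of the members and of the 6 lists, red where higher and blue where lower with an adjusted p below 0.05 (edgeR), grey otherwise; the triangles mark BKA90DRAFT_143783 at its bound. The acetate and semialdehyde lists have blue and grey points and no red ones, while the members have 1 red and 2 blue points.

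The plot of fold changes by setting shows how far each tested member moved when a step was changed. The fall of BKA90DRAFT_143368 is filled throughout, whereas the points of BKA90DRAFT_139077, BKA90DRAFT_161625, BKA90DRAFT_135201, BKA90DRAFT_135052, BKA90DRAFT_133516 and BKA90DRAFT_2704 are filled under some settings and open under others.

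**Figure D5:**
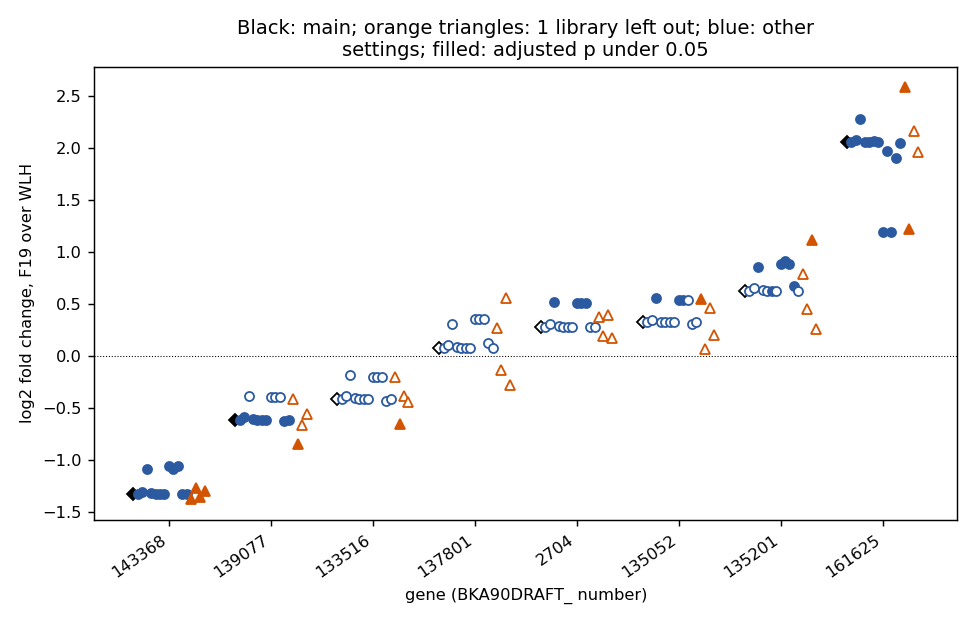
Log2 fold change of F19 over WLH for the 8 tested members under each setting: black diamonds for the values reported, orange triangles with 1 library left out and blue circles for other scalings, filters and tools, filled where the adjusted p is below 0.05. BKA90DRAFT_143368 stays between -1.38 and -1.05, and BKA90DRAFT_161625 ranges from 1.19 to 2.59.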

How the data were processed

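Tools named in the submitters' processing notes are HISAT2 2.2.1, HTSeq 0.6.1, cutadapt 1.9.1 and DESeq2. The sources used here give no settings, strand or genome build, and coordinates are those of the deposited scaffolds. The authors deposited raw counts per gene and FPKM, counts scaled by exonic length and by the total of the table. Per the file headers, their table of significant genes adds a mean scaled signal, a linear fold (ratio), a log2 value with an error, a score (test statistic) and p-values. One column, taken as WLH replicate 1, has the letter I for the digit, and 0 columns had no sample. The reference gene table matched 0 identifiers, so names and roles come from the deposited annotation.

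The 3 construct rows of the 6800 features, 0.134% to 0.387% of counts, were left out. edgeR 4.0.16 (R 4.3.3) tested the counts of 6414 genes kept by filterByExpr, with TMM scaling, the quasi-likelihood test, strain as the only term and Benjamini-Hochberg adjustment over all genes. Standard errors were taken as the log2 change divided by the root of F. Alternatives were other scalings and filters, DESeq2 1.42.0, limma 3.58.1 on log2(FPKM + 1) or log2(FPKM + 0.1), a robust fit, the replicate number as a block, leaving out 2 short scaffolds, and leaving out each library. Each test was tested on simulated data, where most of the set changes were recovered and the share of false calls was above the nominal level. Far fewer genes were changed there than were called here, so that share does not carry over to these data. The members and lists were chosen with earlier results of these data known, and the words and ortholog numbers that fill each list were set once the annotation and counts had been seen. Named genes are all members, up to 4 called genes per list with the largest changes, the 3 genes most like the most changed member, and direct neighbours of called members. Others named were picked after their values were seen. Reads shared by similar gene copies cannot be told apart, so values of closely related family members are uncertain, and intervals cover counting error or the fitted spread between libraries only.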

Additional observations from a re-analysis of the deposited data

How the results depend on the processing

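Beside the reported 1 higher and 2 lower members, library totals gave 4 higher and 1 lower, limma on log2(FPKM + 1) and on log2(FPKM + 0.1) 4 and 1 each, limma with no FPKM filter 3 and 1, DESeq2 2 higher, and leaving out 1 library 0 to 2 higher and 1 to 3 lower. With library totals and in limma the median over all genes was 0.19 to 0.24, against 0.01 in the reported fit. Under library totals, limma with a pseudocount of 1, limma with 0.1 and limma unfiltered, the log2 fold changes were -0.38, -0.39, -0.39 and -0.39 for BKA90DRAFT_139077, no longer called, 0.52, 0.51, 0.51 and 0.51 for BKA90DRAFT_2704, now called, and 0.86, 0.89, 0.91 and 0.89 for BKA90DRAFT_135201, now called. BKA90DRAFT_135052 was called at 0.56 with library totals and at 0.54 in both filtered limma fits. DESeq2 called BKA90DRAFT_135201 at 0.63 (adjusted p = 0.0494). Leaving out 1 library gave -0.28 to 0.56 for BKA90DRAFT_137801, 0.068 to 0.55 for BKA90DRAFT_135052, -0.84 to -0.41 for BKA90DRAFT_139077, -0.65 to -0.20 for BKA90DRAFT_133516, 0.27 to 1.12 for BKA90DRAFT_135201 and 1.22 to 2.59 for BKA90DRAFT_161625. A lone library was taken to vary like the other strain. The cause of these changes was not tested. BKA90DRAFT_143368 kept its call in each setting.

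Same-numbered libraries of the strains shared only a number (correlation of deviations -0.09 over 6414 genes). With the replicate block, 2 members were called higher and 2 lower, and BKA90DRAFT_135201 was called at 0.67 (adjusted p = 0.00166, edgeR). The block uses up a degree of freedom on numbers that paired nothing, so this p-value is not taken as firmer than the reported 0.0879. Scaling FPKM by the TMM factors turned the order of the mean sums, to 1256 in F19 and 1305 in WLH, and the sum without BKA90DRAFT_137801 was 1042 in F19 and 947 in WLH. Among the list counts that moved by over 1.5 times were, for the wide annotation search, 5 rises with library totals and with unfiltered limma and 5 falls with DESeq2 and the block. The chaperonin 10-like list had 2 falls with library totals and in each limma fit, the formaldehyde list 5 falls with the block, and the other Aldehyde/histidinol dehydrogenases 2 rises with library totals and in limma. With 1 library left out, the wide search gave 0 to 4 rises and 3 to 5 falls, the chaperonin 10-like list 2 or 3 falls, the acetate list 1 to 3 falls, the semialdehyde list 4 to 13 falls and 0 or 1 rise, the formaldehyde list 1 to 3 rises and 1 to 4 falls, and the other Aldehyde/histidinol dehydrogenases 1 or 2 rises. Depth limits BKA90DRAFT_98450, BKA90DRAFT_161625 and BKA90DRAFT_142377.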
